A study of Mus musculus with 2 samples.

Results

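The S100 proteins are a family of small calcium-binding proteins, and 10 of their genes were examined in cultured mouse keratinocytes: S100a1, S100a3, S100a4, S100a6, S100a7a, S100a8, S100a9, S100a10, S100a11 and S100a14. A gene was counted as present on the array where a probe set, a group of short probes for one transcript, carried its symbol alone. By that rule 8 of the 10 genes, with 11 probe sets, could be read, out of 18193 genes on the array. S100a7a, which encodes psoriasin, had no such probe set. S100a11 appeared only on a probe set that also carries other gene symbols, so no value is given for it.

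S100 proteins bind calcium through a pair of EF-hand motifs, usually act as dimers, and work both inside cells and, after release, as signals to other cells. S100A8 and S100A9 pair to form calprotectin, which binds zinc and manganese and is made by neutrophils and by stressed or wounded epidermis. Most of the genes sit next to each other on mouse chromosome 3, in the stretch that also holds the genes of the cornified envelope, the cross-linked protein shell of the outer epidermis.

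The cells were primary keratinocytes from skin of newborn C57BL/6 mice. The control culture is titled MED1flox/flox and named wild-type in its source, so whether its cells carried the floxed alleles rests on the title. The other culture is labelled keratinocyte-specific MED1 null (MED1epi-/-), from mice with the floxed alleles and K5Cre, a Cre recombinase under the keratin 5 promoter, so that deletion is limited to cells that have used that promoter. MED1 is a subunit of Mediator, which links transcription factors to RNA polymerase II. The labels do not give the number of mice behind either culture. Each culture was read on 1 array, so the genotypes could not be tested against each other, how far replicate cultures would vary is unknown, and having 2 arrays in all limits how precise any value is.

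Values are MAS5 signal intensities. A signal under 67.7, the median over both arrays, was raised to that floor, and a gene under it on both arrays counts as not measured. A difference of 2-fold or more was counted. The pooled SD of the log2 ratio between probe sets of one gene was 0.31 (4916 genes), which is 1.24-fold and does not include differences between animals. Med1 itself read 462.7 in the control and 1039 in the other culture, against the direction of the label, and its 6 measured probe sets were all higher (log2 ratios from 0.55 to 1.57). The deleted part of the gene is not given in the labels, so this checks nothing about the deletion, and directions below are those of the labels. Xist read 5461 and 55.7, and the Y-linked genes Eif2s3y 4.2 and 2164 and Kdm5d 1.5 and 380.9. Sex-linked transcripts thus differed along with the label, as between female and male cells. Sex and genotype cannot be told apart in any ratio below, and the part of sex was not tested. The keratinocyte genes Krt5 (26821 and 32220) and Krt14 (32905 and 36849) were high on both arrays, while Krt1, a keratin of the differentiating layers, lay below the floor on both (28.2 and 56.8). Krt10, another keratin of those layers, was measured on both (194.6 and 251.3). Trp63 read 7798 and 11736, with 4 probe sets from 0.59 to 1.11 in log2 ratio. All 6 measured keratinocyte markers had a log2 ratio above 0, as did 57.1% of all measured genes.

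Of the members, both calprotectin subunits had the lower signal in the culture labelled MED1-null, and their promoters are shown first. These are the 250 bases before and the first 10 bases of the annotated start of each gene, from RefSeq on GRCm38.p6, read 5′ to 3′ on the strand of the gene. S100a8 lies on the plus strand (chr3:90668821-90669080) and S100a9 on the minus strand (chr3:90695712-90695971). Capitals mark TATAAA, the letters of a TATA box, wherever they lie, and TTGCNNAA, a C/EBP motif.
S100a8: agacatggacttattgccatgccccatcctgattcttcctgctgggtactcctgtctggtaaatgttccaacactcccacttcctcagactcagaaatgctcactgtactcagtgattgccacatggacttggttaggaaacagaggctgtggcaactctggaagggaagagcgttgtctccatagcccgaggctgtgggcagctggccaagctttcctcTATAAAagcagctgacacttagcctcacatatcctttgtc
S100a9: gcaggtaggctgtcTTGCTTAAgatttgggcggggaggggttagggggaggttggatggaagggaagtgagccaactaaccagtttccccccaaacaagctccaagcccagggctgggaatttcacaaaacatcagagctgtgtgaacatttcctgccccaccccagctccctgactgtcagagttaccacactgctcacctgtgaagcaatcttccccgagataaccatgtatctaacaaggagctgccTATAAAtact

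In S100a8 the TATAAA begins 30 bases before the annotated start, and in S100a9 it begins at the annotated start itself. The TTGCNNAA match of S100a9 begins 236 bases before the start, and S100a8 has none. Searched on both strands in windows of 260 bases, TATAAA was held by 4 of 11 member windows and by 12.7% of all 32851 windows. The others with it were S100a4 and 1 of the 4 start windows of S100a3. TTGCNNAA was held by 1 member window and by 9.85% of all windows. The AP-1 motif TGANTCA (7.03% of all windows), the STAT motif TTCNNNGAA (7.33%) and a kappaB-type motif, GGG and CC with 5 bases of any kind between them (46.9%), were held by 1, 1 and 5 member windows, and none of these letters was in the windows of S100a8 and S100a9. Windows were given for 8 of the 10 genes, which are not the same 8 that could be read on the array. S100a10 and S100a14 had no window, while S100a7a and S100a11, without a value on the array, had one. The AP-1 motif lay in the window of S100a11 and the STAT motif in that of S100a7a. A match describes letters and does not show a bound site.

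S100a8 read 16313 in control cells and 4185 in cells labelled MED1-null. It was 3.90-fold lower (log2 ratio -1.96). S100a9, its partner in calprotectin, read 7669 and 2446, 3.14-fold lower (log2 ratio -1.65). Both subunits went the same way, and their log2 ratios differed by 0.31 in size. The SD between probe sets of one gene does not measure a difference between genes, so that gap was not judged. Each has 1 probe set on the array. The suffix of the S100a8 probe set marks sequence that other transcripts may share, and that of S100a9 does not. From the lowest ratio up, S100a8 held rank 33 and S100a9 rank 60 among the 11621 measured genes. Signal was high on both arrays, far above the floor, so these differences do not rest on how low values were treated. Among 919 genes with a mean signal at or above that of S100a9, a limit chosen after its values were seen, 12 were at least 2-fold lower (1.31%), S100a8 and S100a9 among them.

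S100a3 went the other way, with more signal in the cells labelled MED1-null. The gene encodes a cysteine-rich S100 protein of the hair cuticle. It read 128.7 and 424.6, 3.30-fold higher (log2 ratio 1.72), from 1 probe set, and held rank 16 from the highest ratio down. Its control value is less than 2 times the floor, where MAS5 values are noisy. Of 1982 genes with a mean signal within 1.5-fold of that of S100a3, also chosen after the fact, 2.27% were at least 2-fold higher. Other genes of the hair follicle were read beside it. Of 13 with a probe set, 7 lay below the floor on both arrays, among them the hair keratins Krt31, Krt35 and Krt82, and the summed signal of the 13 was 1350 and 1159. Of the 6 measured, 1 was lower and none higher by 2-fold, where 2.23% and 1.63% of all measured genes were. The lower one was Padi3, the enzyme that converts arginines of S100A3 to citrulline, which read 149.9 and 41.7, at least 2.21-fold lower. Foxn1, a transcription factor of hair and epidermal differentiation, read 235.5 and 335.6, and Tchh, the trichohyalin of the inner root sheath, 309.1 and 229.8.

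**Figure D1:**
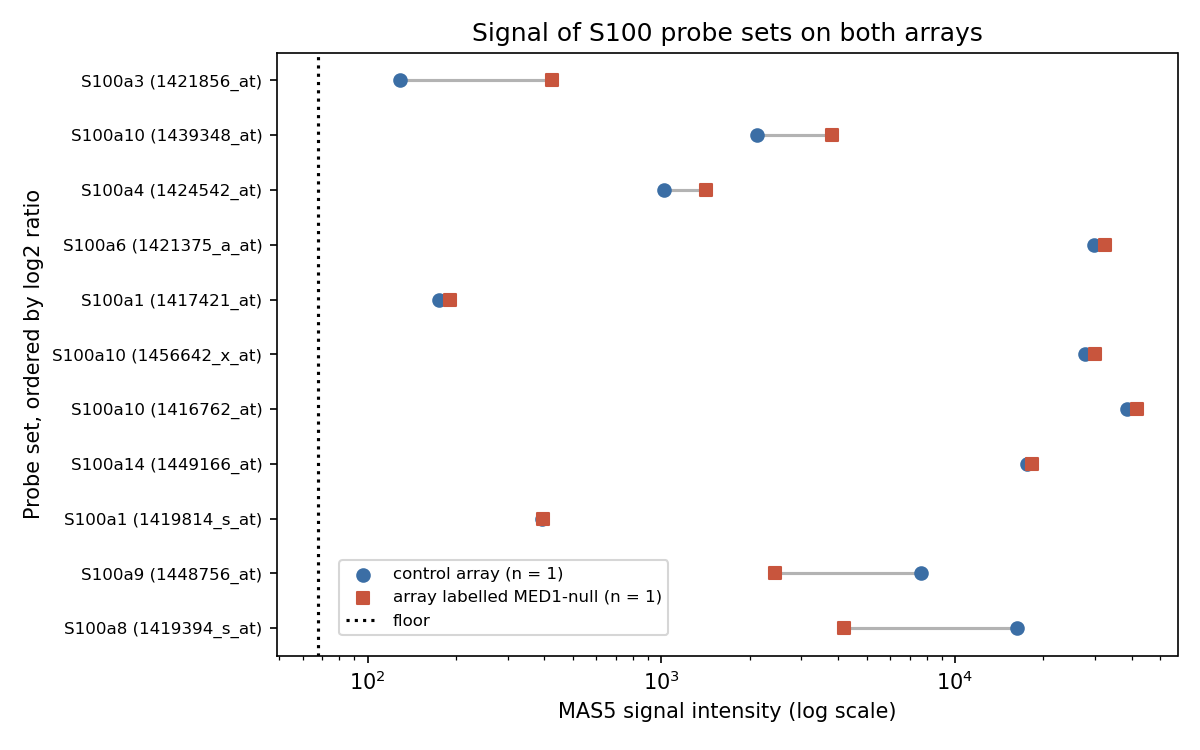
Signal intensity (log scale) of the 11 probe sets of 8 S100 genes on the control array (circles) and the array labelled MED1-null (squares), ordered by log2 ratio, with the floor of 67.7 dotted. S100a8 and S100a9 lie far to the left on the array labelled MED1-null and S100a3 to the right, while the pairs of S100a6, S100a14 and S100a1 nearly coincide.

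The other 5 readable members lay within 2-fold. S100a4, a protein that binds non-muscle myosin and is used as a mesenchymal marker, read 1021 and 1421 (1.39-fold higher). Markers of fibroblasts, which also express it, were read beside it, and all 7 with a probe set summed to 660.8 and 415.3. Col3a1 (120.8 and 35.5), Dcn (118.1 and 35.2) and Twist2 (112.9 and 36.0) reached the floor through the control array alone, so each has only a bound. Pdgfra (156.6 and 126.2) and Col1a2 (80.3 and 115.3) reached it on both arrays, and Col1a1 (42.3 and 14.1) and Lum (29.8 and 53.0) on neither. Their part in the value of S100a4 was not tested. S100a6, or calcyclin, read 29818 and 32507 (1.09-fold higher). S100a14, an epithelial member, read 17593 and 18236 (1.04-fold higher). S100a1, best known from heart muscle, read 393.7 and 396.9 on its brighter probe set and 175.6 and 190.1 on the other. The sign of S100a1 turned to -0.05, -0.07 and -0.09 under the 3 rescalings of the arrays, and that of S100a14 to -0.01 under one of them, so neither has a direction.

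S100a10, the annexin A2 partner also called p11, had 3 probe sets that differed in size of change. The brightest read 38543 and 41524 (log2 ratio 0.11), near the top of the scale, where the highest signal on the arrays was 45825 and 46749. The next read 27723 and 29902 (0.11). The dimmest read 2110 and 3813, 1.81-fold higher (0.85). Whether the brightest probe sets were compressed near the top of the scale was not tested. Anxa2, which holds S100A10 in a complex at the plasma membrane, read 40688 and 43837 (1.08-fold), and Ahnak, a large scaffold bound by that complex, 17537 and 19168 (1.09-fold), both picked for their role after their values were seen. The 3 measured probe sets of Ahnak ran from -1.38 to 0.13 in log2 ratio.

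Over the 8 readable members, 1 was at least 2-fold higher, 2 were lower and 5 lay between. Over all 11621 measured genes, 1.63% were at least 2-fold higher and 2.23% lower, together 3.86%. Lower genes made up 57.7% of those beyond 2-fold, and 69.1% after the lowess rescaling of the arrays. The median log2 ratio of the members was 0.08, against 0.06 for all measured genes, and the mean was -0.14. With so few members, and members chosen with earlier results known, the share says nothing particular about the family. All 8 members reached the floor on both arrays, so none entered the count through one array alone.

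**Figure D2:**
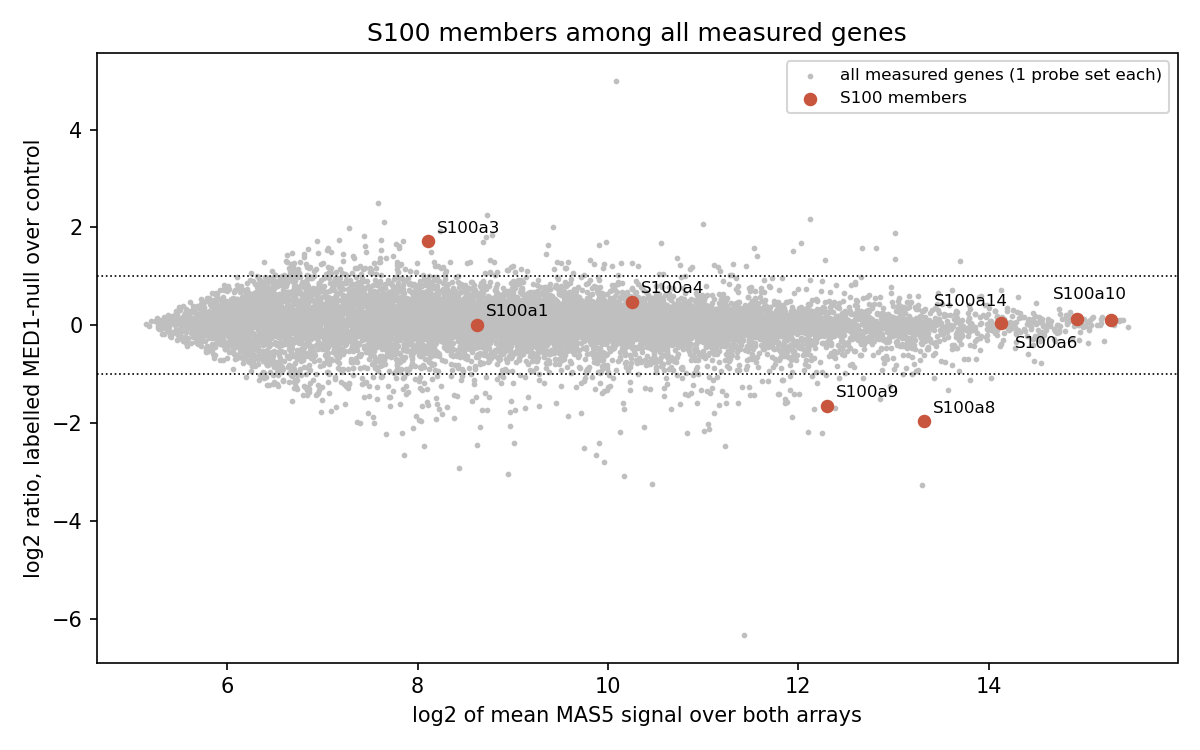
Log2 ratio (array labelled MED1-null over control) against log2 mean signal for the 11621 measured genes (grey) and the 8 S100 members (red), with dotted lines at 2-fold. S100a8 and S100a9 lie below the lower line at high signal, S100a3 above the upper line at low signal, and the other 5 between the lines.

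Of the S100 genes outside the list, S100a13 (418.6 and 403.0) and S100a16 (24942 and 24618) were measured and lay within 2-fold, with log2 ratios of -0.05 and -0.02. S100a5, S100a7l2, S100b and S100g were below the floor on both arrays. S100a5, the gene next to S100a4, read 1.8 and 61.1, which gives no fold under this floor. S100b, a gene of melanocytes and glia, read 51.6 and 25.5, although the melanocyte genes Tyrp1 (9346 and 6715) and Dct (7568 and 6584) were bright on both arrays. Mlana read 2258 and 1629 and Pmel 4061.5 and 2946. Of the 6 melanocyte markers measured, 5 had a log2 ratio below 0 and 1 above, while 57.1% of all measured genes lay above 0. S100pbp, which encodes a binding protein of an S100 protein and is not itself one, read 129.4 and 204.4. Of 4 measured fused-type S100 genes, large epidermal proteins that carry an S100 domain at one end, none reached 2-fold. Rptn, or repetin, read 78.3 and 150.9, Flg, the barrier protein filaggrin, 133.0 and 185.9, and the third was Tchh. The remaining gene, Hrnr, read 67.7 and 30.7, so the floor sets its log2 ratio to 0. With control signals this near the floor, Hrnr, Rptn and Flg could not have been counted as 2-fold lower.

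Read along chromosome 3, the S100 genes with the largest differences were not evenly placed. S100a1, S100a13, S100a14 and S100a16 come first in the RefSeq gene table and had log2 ratios between -0.05 and 0.05. S100a3 and S100a4 follow at 1.72 and 0.48, then S100a6 at 0.12, and then S100a8 and S100a9, neighbours of each other, at -1.96 and -1.65. S100a10 lies at the far end of the stretch, beyond the envelope genes. Between S100a9 and S100a10 lie the genes of the cornified envelope, of which 27 were measured. Their median log2 ratio was -0.29, with 17 below 0 and 10 above, and 3 were at least 2-fold lower and none higher. Over all measured genes, 2.23% were at least 2-fold lower and 1.63% higher, and 57.1% had a log2 ratio above 0. Just under the call lay Lce3f (1.96-fold higher), Ivl (1.90-fold) and Sprr2f (1.86-fold). The 2 probe sets of Ivl gave log2 ratios of 0.92 and 1.05. The 3 lower genes were Kprp, a proline-rich keratinocyte protein (3543 and 1307, 2.71-fold lower), and the late cornified envelope genes Lce1h (2675 and 1140) and Lce1b (644.6 and 307.4). Over all 42 measured genes of the stretch, S100 genes included, the median was -0.04, with 1 higher and 5 lower. Some Sprr and Lce probe sets carry suffixes of shared sequence, that of Lce1h among them, and these paralogs are close enough in sequence to share signal.

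**Figure D3:**
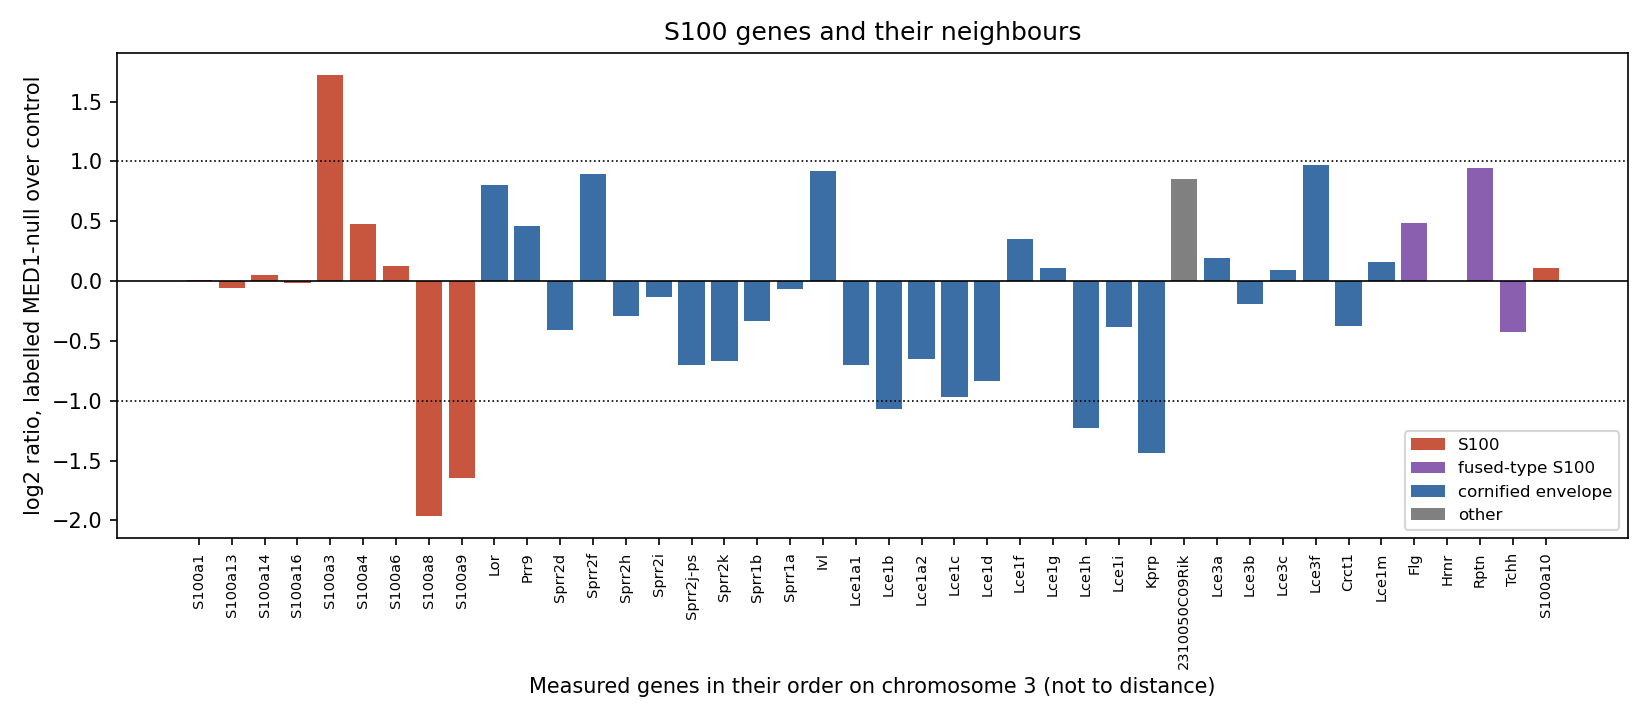
Log2 ratio (array labelled MED1-null over control) of the 42 measured genes from S100a1 to S100a10 in their order on chromosome 3, spaced evenly and not by distance, with dotted lines at 2-fold. S100 genes (red) hold both the highest bar, S100a3, and the lowest, S100a8 and S100a9, while the cornified envelope genes (blue) lie on both sides of 0.

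Calprotectin is also a main protein of neutrophils, and genes of myeloid cells were read beside it. Of 14 with a probe set, 9 were below the floor on both arrays, among them Ptprc (27.7 and 7.8), Itgam (30.9 and 28.2), the granule genes Ngp (18.5 and 53.7), Ltf (33.8 and 20.3) and Elane (14.4 and 36.8), and the receptor gene Csf3r (53.7 and 3.8). Of all measured genes, 57.1% had a log2 ratio above 0. The 5 myeloid genes measured lay within 2-fold, each with a log2 ratio above 0 by its brightest probe set. They were the macrophage receptor genes Csf1r (164.0 and 228.9) and Adgre1 (44.1 and 82.0), the lysozyme gene Lyz2 (104.0 and 121.5), the granule enzyme gene Mpo (9.5 and 73.6) and Cd68, a lysosomal protein (2446 and 2799). Mpo and Adgre1 reached the floor only on the array labelled MED1-null, so each has only a bound. The 3 probe sets of Csf1r ran from -0.68 to 0.48 in log2 ratio. Whether myeloid cells had a part in the values of S100a8 and S100a9 was not tested. The list summed to 2982 and 3528, most of it from Cd68. Of 4 listed Langerhans cell genes, Cd207 (5.8 and 7.3) and H2-Aa (6.0 and 8.3) lay below the floor on both arrays. Cd74 read 71.9 and 58.9, reaching the floor on the control array alone, and Epcam 8386 and 11138. Whether Langerhans cells were present was not tested.

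Among proteins that S100 proteins bind inside cells, all 12 measured genes lay within 2-fold by their brightest probe sets, with a median log2 ratio of 0.07 and a range from -0.21 to 0.29. The 3 farthest from 0 were Pgm1, a phosphoglucomutase (566.3 and 690.9), Cacybp, the calcyclin-binding protein (3316 and 3909), and Myh9, the heavy chain of non-muscle myosin and a target of S100A4 (10942 and 12776). The brighter probe set of Anxa1, which partners S100A11, gave a log2 ratio of 0.09 and the other 1.55. The 2 probe sets of Ezr gave -0.21 and -1.08, and the 5 of Myh9 ran from 0.10 to 0.98.

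Receptors and signalling genes for released S100 proteins were all within 2-fold too, 9 being measured, with a median of -0.04. Ager, which encodes the receptor RAGE, was below the floor on both arrays (9.2 and 5.2), and Tlr4, the other main receptor of calprotectin, was at the floor (69.8 and 40.6). Bsg, or basigin, a receptor of S100A9, was bright on both arrays (7604 and 7802, 1.03-fold). Alcam, an adhesion molecule, read 465.8 and 244.4 and was 1.91-fold lower, with 4 probe sets from -0.93 to -0.42. The list also held Ppbp, a chemokine gene and no receptor, at 1122 and 1773, and Cd14, a coreceptor of TLR4, at 136.4 and 191.8.

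Over all measured genes, 2.23% were at least 2-fold lower and 1.63% higher. Of 24 measured genes listed as regulators of S100a8 and S100a9, 23 lay within 2-fold and 1 was lower by more, with a median of 0.08. The lower one was Il1a, the keratinocyte cytokine interleukin-1 alpha (6524 and 2871, 2.27-fold lower). Cebpa, a C/EBP transcription factor of differentiating keratinocytes, read 639.6 and 1257 (1.97-fold higher). Nfkbiz, an inducible cofactor of NF-kB downstream of interleukin-17 and interleukin-1, read 10716 and 5751 (1.86-fold lower), with 3 probe sets from -0.90 to -0.03. Cebpb, picked after its values were seen, read 4814 and 3457, and Stat3 2459 and 2738. Il6 and Il20ra were below the floor on both arrays.

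Other alarmins and antimicrobial genes of stressed epidermis went in both directions beside calprotectin. Of 14 measured, 3 were at least 2-fold higher and 3 lower, where 1.63% and 2.23% of all measured genes were. Their median was -0.12 (0.07 with no floor, 0.05 without probe sets of shared-sequence suffix and -0.29 with the floor at 434.6). The lower ones were Slpi, an inhibitor of leukocyte proteases (18294 and 1903), Defb3, a beta-defensin (1898 and 783.5), and Lcn2, an iron-siderophore-binding protein (167.3 and 45.4, at least 2.47-fold). The higher ones were Defb1, another beta-defensin (790.7 and 3300), the cytokine Il33 (1985 and 6360) and the acute phase gene Saa3 (91.4 and 259.0). The wound keratins Krt6a (41890 and 44986) and Krt16 (13588 and 22242), which often rise with calprotectin in stressed skin, were 1.07-fold and 1.64-fold higher here, and Krt6b (1808 and 1429) was 1.27-fold lower.

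**Figure D4:**
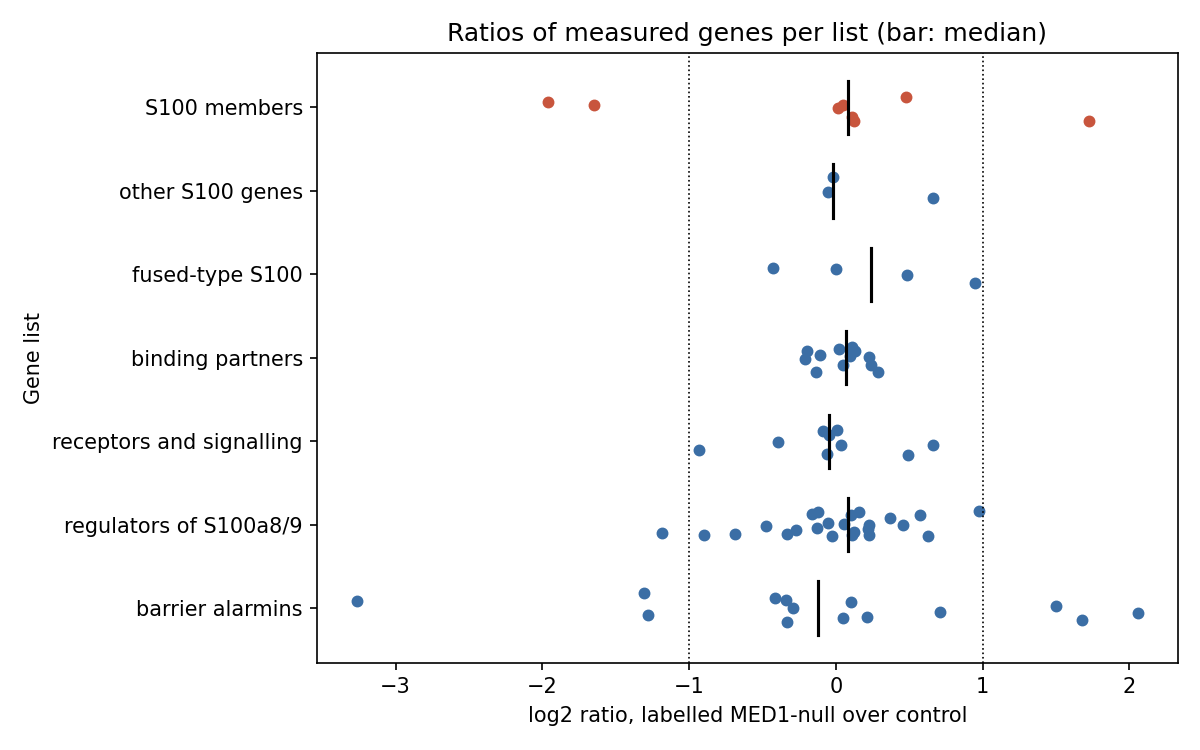
Log2 ratios (array labelled MED1-null over control) of the measured genes of 7 lists, 1 point a gene, with a bar at each median and dotted lines at 2-fold; points are spread vertically at random. By the brightest probe set of each gene, the binding partners lie closest to 0, from -0.21 to 0.29, and the S100 members and barrier alarmins hold points beyond 2-fold on both sides.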

How the data were processed

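RNA of 2 primary keratinocyte cultures was read on 1 Affymetrix mouse array each. The deposited values are linear signal intensities per probe set, made by MAS5, per the submitters' processing notes; its version is not given in the sources used here. The 2% trimmed mean is 500.004 on both arrays, so both were scaled as a whole. Mismatch signal is subtracted by MAS5, and low values are noisy for that reason. Of 45101 probe sets, 64 are controls, 34945 had 1 gene symbol in GEO's platform annotation, 932 several and 9160 none, and genes were named from the first class alone. Each gene was read from its brightest probe set (mean of both arrays). Signals were floored at 67.7 and log2 ratios taken as labelled MED1-null minus control, with Python 3.11.15, pandas 2.3.3 and statsmodels 0.14.6 (lowess), and the counting was checked on simulated data. No test was run, with 1 array per group. Genes named are all members, Med1, and in each list those at least 2-fold apart plus the 3 farthest from 0; others, such as Bsg, Stat3, Krt6a, Dct and the marker genes below the floor, were added for their role after their values were seen. Members and lists were chosen with earlier results of these data known. Alternatives were 3 floors, 3 rescalings, 2 probe set rules and a 1.5-fold call. Promoters and gene order came from RefSeq, GRCm38.p6.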

Additional observations from a re-analysis of the deposited data

How the results depend on the processing

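The log2 ratio of S100a8 stayed between -2.03 and -1.90, that of S100a9 between -1.71 and -1.62 and that of S100a3 between 1.60 and 1.72. Only the 3 rescalings could move these values. Each gene has 1 probe set and its signals lay above every floor that kept it, so those floors and the probe set rules could not change its ratio. At a floor of 434.6, the 75th percentile, S100a3 was not measured and 0 members were at least 2-fold higher. The rule named for shared-sequence suffixes left out probe sets ending in _s_at, _x_at or _a_at. Under it, S100a8 (_s_at) and S100a6 (_a_at, another ending) had no value and 1 member, S100a9, was lower. The median of the members ran from 0.02 to 0.11. The counts over all genes depended on the floor: 1120 higher and 934 lower at the 25th percentile (18.1), 49 and 106 at the 75th, and 2229 and 1900 with no floor. Rescaling by the median ratio, quantiles and lowess gave 158 and 300, 153 and 303, and 144 and 322. With a 1.5-fold call the counts were 907 and 851. The median of the fused-type S100 genes was -0.43 at the 25th percentile and -0.43 with no floor, and no value was left at the 75th. The median of the barrier alarmins was 0.07 with no floor, 0.05 without shared-sequence suffixes and -0.29 at the 75th percentile, that of the chromosome 3 stretch 0.03 without those suffixes and -0.29 at the 75th percentile, and that of the receptors 0.01 by the median over probe sets. The median of the chromosome 3 envelope genes, a class set after seeing the data, stayed between -0.35 and -0.23. The cause of these shifts was not tested. No paired analysis was possible because each group has 1 array.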
